A study of Mus musculus with 12 samples.

Results

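Integrin alpha subunits are the transmembrane chains that pair with a beta chain and set which matrix or cell surface ligand an integrin binds. Itga8, Itga1, Itga2b, Itga4, Itga5, Itga6, Itga7, Itga9, Itga11 and Itgav were followed in RNA sequencing of mouse embryonic hearts. They were found by their symbols and make up 10 of the 19424 genes used here, out of 20368 in the deposited table. Of the 19424, 17827 had at least 1 count. Itga8 was chosen by its measured values, the lower level in mutant than in control hearts of these same libraries, so its genotype difference is given as a description with no test.

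The hearts were taken at E11.5 and E12.5 from embryos on a CD1 background. Controls carried Mesp1Cre and 1 floxed Hira allele over a wild type allele (Mesp1Cre;Hira+/fl), and mutants carried Mesp1Cre with 1 floxed and 1 constitutive null allele (Mesp1Cre;Hira-/fl). HIRA is a chaperone for the histone variant H3.3, and every library, controls included, carried the Cre. Each of the 4 groups had 3 libraries. Recombination by Mesp1Cre is limited to descendants of the early mesoderm that builds the heart, so cells of other origin in a mutant heart keep 1 working allele. Nothing in the labels says whether a library was 1 heart or a pool, so p-values measure the spread between these libraries.

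The libraries held 11994148 to 17483982 counts. Summed over the whole gene, Hira RPKM ran from 12.6 to 16.3 in E11.5 mutants against 15.1 to 19.0 in controls, and from 15.5 to 17.6 against 13.4 to 19.1 at E12.5. Cre removes only part of the gene, so these sums do not check the genotype labels. Counts on 4 Y-linked genes put all 3 E11.5 controls as male, against 1 library in each of the other groups, and the male E11.5 mutant, replicate 3, was also the shallowest library. Summed CPM (counts scaled to library size) of 8 cardiomyocyte markers ran from 16478 to 24024 over all libraries. Any difference in collection or sequencing between the stages cannot be told apart from the stage itself.

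Alpha and beta chains pair inside the cell, and most alpha chains of the heart share the beta chain Itgb1. Subunits alpha5, alphav and alpha8 belong to the group that recognises the RGD peptide of fibronectin and related ligands. Alpha6 and alpha7 bind laminins, alpha1 and alpha11 bind collagens, and alpha4 and alpha9 bind VCAM1 and fibronectin or tenascin. Alpha2b is the platelet and megakaryocyte subunit. Alpha8beta1 is best known as the receptor for nephronectin in kidney development and is also found on mesenchymal and smooth muscle cells.

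Itga8 (ENSMUSG00000026768) lies on the minus strand of the GRCm38 assembly at chr2:12106632-12301920, with 30 exons and 5782 bases counted for its length. Its promoter is shown because Itga8 is the subunit whose level the report turns on. It is the RefSeq sequence of the 250 bases before the start, chr2:12301945-12302194 of GRCm38.p6, minus strand, written 5′ to 3′ with each CG dinucleotide in capitals.
Itga8 promoter: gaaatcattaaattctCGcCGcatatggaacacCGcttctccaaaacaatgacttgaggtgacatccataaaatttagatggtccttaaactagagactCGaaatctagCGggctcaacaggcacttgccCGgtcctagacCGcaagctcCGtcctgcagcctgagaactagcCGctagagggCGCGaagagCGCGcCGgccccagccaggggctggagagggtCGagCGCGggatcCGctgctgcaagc

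The window held 18 CG dinucleotides and 56.4% G or C, against medians of 6 and 52.4% over 32851 promoter windows of the same length, whose quartiles for CG were 2 and 16. GAGAGAGA, TATAAA and CCAAT, searched on both strands, were not among its letters. Over all windows GAGAGAGA was found in 3.26%, TATAAA in 12.4% and CCAAT in 33.8%. RefSeq windows were matched for 8 of the 10 genes, all but Itga6 and Itga7, and none of those 8 held any of the 3 motifs. The windows matched to Itga9 and Itga2b lie wholly and almost wholly inside the counted gene, and that of Itga11 overlaps its first bases.

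Levels are given as RPKM, reads scaled by gene length in kilobases and by library size, computed from the recovered counts with TMM-scaled library sizes, so that genes of different length can be compared. Itga5, the main fibronectin receptor subunit, was the most abundant of the 10 in every group, with 57.9 ± 11.3 RPKM (SD, n = 3) in E11.5 controls and 73.8 ± 5.41 in E12.5 controls. Itga6, a laminin receptor subunit of endothelium and epithelia, followed with 35.0 ± 9.41 and 50.4 ± 6.90 RPKM. The ranges of these neighbours were apart in both control groups and overlapped in both mutant groups. Itga6 stood clear of the gene below it in all 4 groups.

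In the middle of the order, Itgav, Itga1, Itga2b, Itga9 and, at E11.5, Itga4 lay between 7.03 and 16.4 RPKM in control hearts, and most neighbours there overlapped. Itga8 stood 8th of 10 at E11.5 and 7th at E12.5 in both genotypes, with its range apart from that of the next lower gene in every group except E12.5 mutants, where it overlapped Itga4. Itga7, the laminin receptor subunit of muscle, and Itga11, a collagen receptor subunit of mesenchyme, were lowest in every group, at means of 0.610 to 1.04 RPKM and 0.235 to 0.509 RPKM. Itga11 had 11 to 50 counts a library and failed the filter of a mean of at least 0.5 RPKM in each fit, so 9 of the 10 genes were tested.

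**Figure D1:**
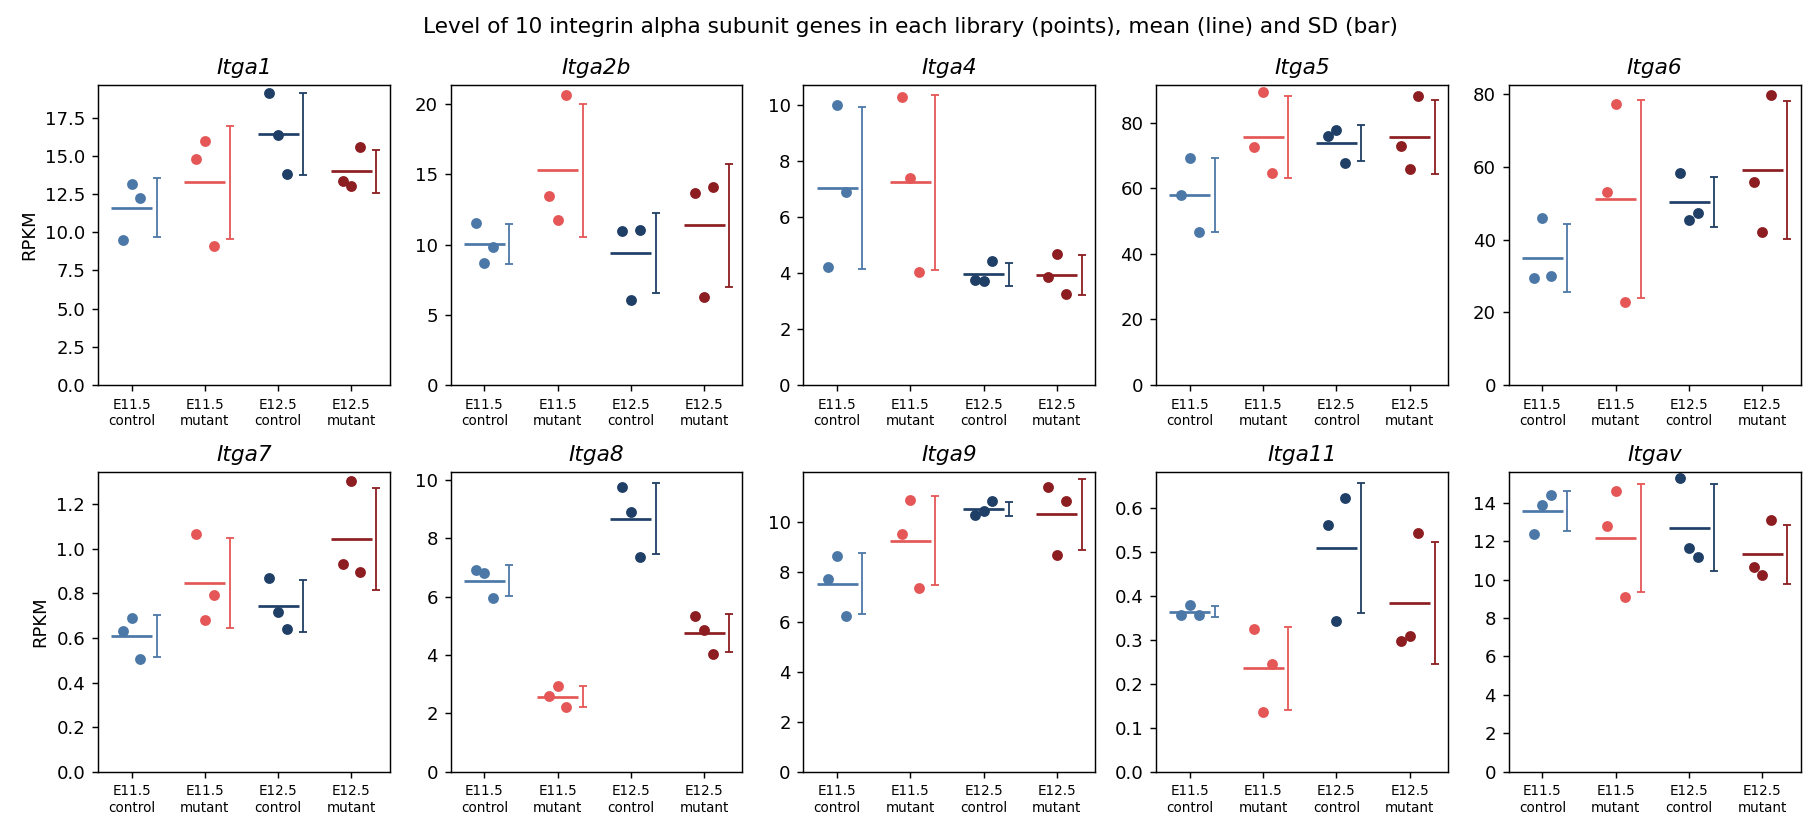
Level of each of the 10 integrin alpha subunit genes in RPKM (vertical axis, linear, starting at 0 and scaled for each gene) in the 4 groups; points are libraries, lines are means of 3 and bars are SD. Itga8 is the gene whose mutant libraries lie below the control libraries at both stages, while Itga5 and Itga6 are the most abundant.

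Itga8 was at 6.91, 6.80 and 5.93 RPKM in E11.5 control replicates 1, 2 and 3 and at 2.60, 2.93 and 2.20 RPKM in the E11.5 mutants. At E12.5 it was at 9.77, 8.89 and 7.35 RPKM in controls and 5.35, 4.87 and 4.04 RPKM in mutants. Every mutant library lay below every control library of its stage, and the E12.5 mutants also lay below the E11.5 controls. Behind these levels stood 148 to 279 counts in E11.5 mutants and 357 to 911 counts in the E12.5 libraries. Mutant levels were 2.52-fold lower at E11.5 (log2 fold change −1.33, SE 0.15) and 1.81-fold lower at E12.5 (−0.85, SE 0.13).

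A gene was called when its Benjamini-Hochberg adjusted p in edgeR's quasi-likelihood test was at most 0.05 and its fold change at least 1.5. Of the 9 subunit genes tested, 1 was called at E11.5 and 1 at E12.5, Itga8 both times, where 0.115% of 12197 genes and 2.95% of 12257 genes were called. Itga8 was 1 of the 4 genes called lower at both stages, 0.0332% of the 12031 tested at both. By size of fold it was 6th of the 8 genes called lower at E11.5 (0.0656% of those tested) and 106th of the 167 called lower at E12.5 (1.36%). These counts follow from how Itga8 was picked. At E11.5 the call depended on the libraries used: leaving out any 1 of the 3 controls or of mutant replicates 1 and 2 ended it, and the log2 fold change was −1.43 to −1.24 over the 6 fits that leave out 1 library. At E12.5 the corresponding values were −0.96 to −0.75. The ranks and ranges describe the libraries that chose the gene and do not support the difference. Itga8 shares 346 exon bases with E030013I19Rik on the opposite strand, and since the sources used here do not state strand, reads of that antisense gene cannot be told apart.

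Mutant libraries were also lower in macrophage markers. The summed CPM of this list, in which 7 of 8 genes had counts, was 33.7 to 85.7 for E11.5 controls and 15.0 to 17.2 for their mutants, then 85.7 to 110 for E12.5 controls and 45.5 to 63.8 for theirs. None of the 7 was at 0 throughout a group. Of 6 macrophage markers tested, 1 was called lower in mutants at E11.5, the complement gene C1qb (−2.66 on the log2 scale, SE 0.36, adjusted p = 0.0444, edgeR), and 3 were at E12.5, the receptor Csf1r (−0.73, SE 0.16, adjusted p = 0.0267, edgeR), the chemokine receptor Cx3cr1 (−0.84, SE 0.19, adjusted p = 0.0310, edgeR) and the mannose receptor Mrc1 (−1.31, SE 0.17, adjusted p = 0.00303, edgeR). The part of this in the Itga8 result was not tested.

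Cushion mesenchyme markers were lower in the mutant libraries at both stages, and those of the epicardium at E11.5. At E11.5, summed epicardium and mesothelium markers were at 561 to 857 CPM in controls and 359 to 491 in mutants, and cushion mesenchyme markers at 1480 to 1688 and 1097 to 1434. At E12.5 both genotypes overlapped for the epicardial list, at 392 to 566 and 480 to 564 CPM, and cushion markers were at 1184 to 1753 against 1033 to 1163. Of both lists, 2 genes were called between genotypes, both at E12.5. The cushion gene Postn, which encodes periostin, was called lower (−0.61, adjusted p = 0.0241, edgeR) and the mesothelial gene Msln higher (1.03, adjusted p = 0.0140, edgeR). Erythroid markers, the globins among them, overlapped at E11.5 and were apart at E12.5, with sums of 3040 to 4666 CPM in controls and 1686 to 2145 in mutants, where 4 of 7 tested were called lower. The part of these cells in the Itga8 values was not tested. Smooth muscle markers summed to 2452 to 2971 CPM in controls against 2901 to 3459 in mutants at E11.5, which overlapped. At E12.5 they summed to 1609 to 2145 against 2208 to 2603, a sum higher in each mutant, the opposite direction to Itga8. Single genes of this list of 6 went both ways, and none was called by genotype. The 5 tested at E11.5 ran from −0.79 to 0.31 on the log2 scale, and the 4 tested at E12.5 from −0.22 to 0.41. The sum therefore does not show a rise of the list as a whole. In whole hearts, fewer cells of a type and less RNA per cell cannot be told apart.

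**Figure D2:**
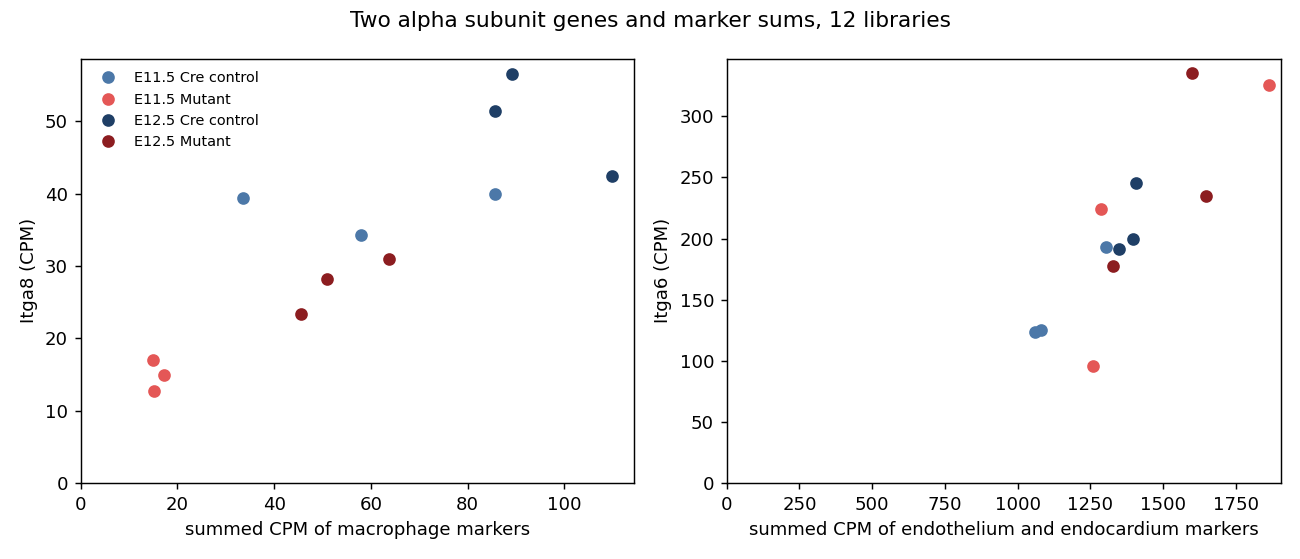
Itga8 against the summed macrophage markers (left) and Itga6 against the summed endothelium and endocardium markers (right), both axes in CPM and starting at 0, with 1 point per library coloured by group. The 3 E11.5 mutant libraries sit lowest on both axes at left, at marker sums of 15.0 to 17.2 CPM, and the Itga6 panel shows genotypes overlapping. Of all marker lists, the macrophage list had the highest Pearson r with Itga8 over the 12 libraries (0.90 on log levels, group differences included). The smooth muscle list had the lowest (−0.82). Both values include the genotype difference by which Itga8 was chosen, so they are descriptions only. Values after subtracting group means were not computed for the lists. Among E12.5 controls the library with the highest macrophage sum had the lowest Itga8. Among E12.5 mutants the library with the highest sum had the highest Itga8.

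None of the other 8 subunits tested met the call rule for genotype at either stage. Itga5 was at 57.8, 69.3 and 46.7 RPKM in E11.5 controls and 72.6, 89.3 and 64.7 in mutants, which overlapped, with a log2 fold change of 0.39. At E12.5 its fold change was 0.05. Itgav, the other broadly expressed RGD-binding subunit, stood at −0.15 at both stages, and its libraries overlapped at each.

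Itga6 was spread widest, relative to its mean, in the E11.5 mutants. It was at 29.3, 45.9 and 29.9 RPKM in E11.5 controls and 53.3, 77.4 and 22.8 in mutants, where replicate 3 lay below all controls and the others above. The log2 fold change was 0.55 (SE 0.37), and 0.90 without mutant replicate 3. With sex in the model, which sets that male mutant against 3 male controls, it turned to −0.60, and 3 more subunits turned from positive to negative at E11.5, namely Itga1 (0.20 to −0.33), Itga4 (0.05 to −0.78) and Itga9 (0.30 to −0.02). At E12.5 Itga6 was at 58.3, 45.5 and 47.4 RPKM in controls and 55.8, 42.2 and 79.7 in mutants, which again overlapped.

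Itga2b was higher in each E11.5 mutant, at 13.4, 11.8 and 20.6 RPKM, than in the controls, at 11.6, 8.72 and 9.84. Its log2 fold change was 0.61, or 0.33 without mutant replicate 3. With sex in the model the value was 1.06. That replicate also had the highest sum of megakaryocyte and platelet markers, 128 CPM, with 52.5 and 54.9 in the other mutants and 52.0 to 91.6 in controls, and the part of this in the Itga2b values was not tested. At E12.5 Itga2b overlapped, at 11.0, 6.09 and 11.0 RPKM in controls and 13.7, 6.30 and 14.1 in mutants.

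Itga7 was higher in each E12.5 mutant, at 0.932, 1.31 and 0.895 RPKM, than in the controls, at 0.869, 0.715 and 0.642. The gap between the nearest libraries was small, and at E11.5 the groups overlapped. On the log2 scale the difference was 0.48 at the earlier stage and 0.51 at the later one. Itga8 and Itga2b were thus the 2 of 9 tested genes without overlap at E11.5, where 16.4% of genes had none, and Itga8 and Itga7 the 2 of 9 at E12.5, where 26.4% had none. Itga11, untested, was at 0.355 to 0.379 RPKM in E11.5 controls and 0.135 to 0.325 in mutants, from few counts.

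Itga1, the collagen and laminin binding subunit, overlapped between genotypes at both stages, with 9.47 to 13.2 against 9.08 to 16.0 RPKM and then 13.8 to 19.1 against 13.0 to 15.6. Itga4 and Itga9 overlapped too, with E12.5 log2 fold changes of 0.00 and −0.02. Over the 8 genes other than Itga8 the median log2 fold change was 0.35 at E11.5 and 0.03 at E12.5, beside 0.00 over all genes tested at each stage.

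**Figure D3:**
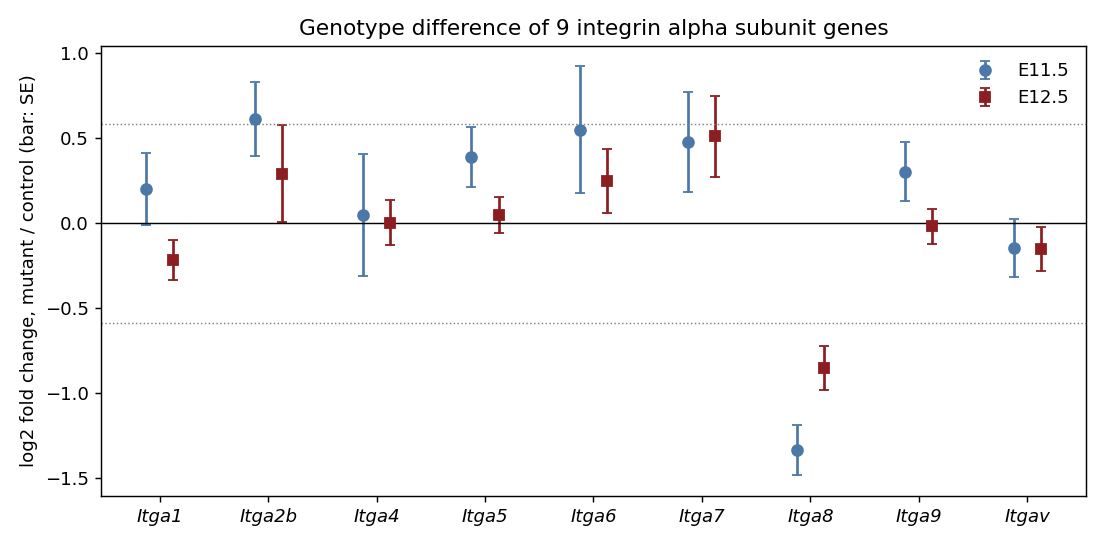
Log2 fold change of mutant against control hearts (vertical axis; bars are SE) for the 9 tested subunit genes at E11.5 (circles) and E12.5 (squares), 3 against 3 libraries at each stage; dotted lines mark a fold of 1.5. Itga8 lies at −1.33 and −0.85, and of the other 8 genes Itga2b at E11.5 (0.61) is the only one past a dotted line.

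As a share of the summed RPKM of the 10 genes, Itga8 made up 4.41% ± 0.544 (SD, n = 3) in E11.5 controls and 1.40% ± 0.150 in mutants, then 4.62% ± 0.371 and 2.56% ± 0.710 at E12.5. The sums themselves were 150 ± 23.8, 188 ± 45.1, 187 ± 15.8 and 192 ± 36.5 RPKM in the same order, and the mutant and control sums overlapped at both stages. Itga5 and Itga6 supplied most of each sum, with 38.5% and 23.1% in E11.5 controls.

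**Figure D4:**
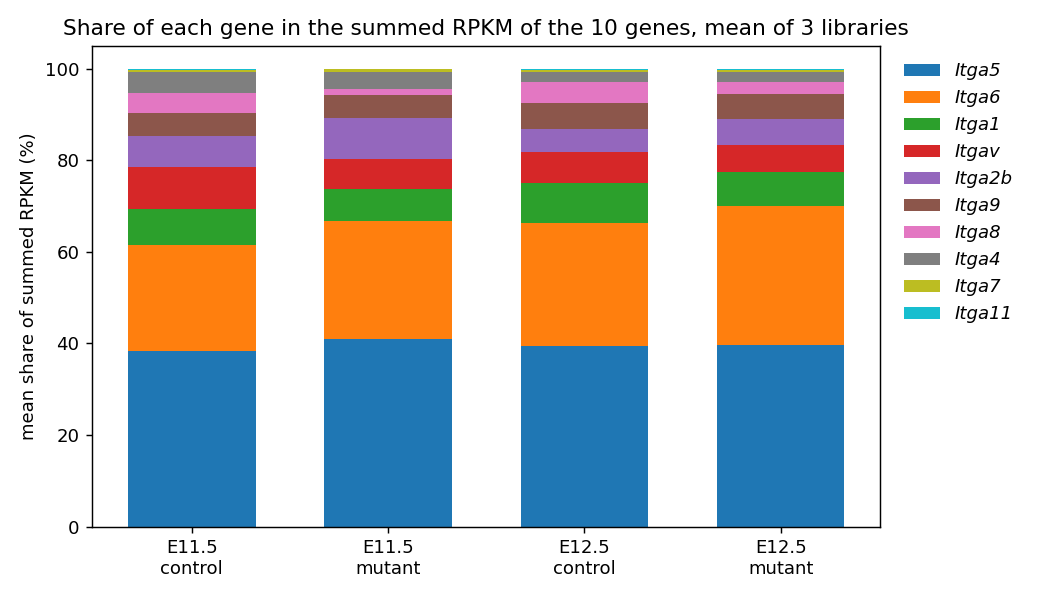
Mean share (%) of each gene in the summed RPKM of the 10 integrin alpha subunit genes for the 4 groups, each bar stacking means of 3 libraries to 100. Itga5 and Itga6 fill most of every bar, and the Itga8 band is at 4.41% and 1.40% in E11.5 controls and mutants and at 4.62% and 2.56% at E12.5.

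The stage comparison is not the one that chose Itga8, and it was tested over all 12 libraries. The subunits were still chosen with earlier results of these data known. Itga8 rose 1.56-fold from E11.5 to E12.5, or by 0.65 on the log2 scale (SE 0.10, adjusted p = 0.00311, edgeR). All 3 E12.5 controls lay above all E11.5 controls, and all 3 E12.5 mutants above all E11.5 mutants. Itga4 fell 1.81-fold (−0.85, SE 0.22, adjusted p = 0.0286, edgeR). These were 2 of the 9 genes tested, where 4.04% of 12270 genes were called, and 3976 of those genes (32.4%) had an unadjusted p under 0.05.

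The Itga8 call held on leaving out each of the 12 libraries in turn (0.59 to 0.70). Within controls alone the rise was 0.40 (SE 0.12, adjusted p = 0.0548, edgeR) and within mutants alone 0.88 (SE 0.16, adjusted p = 0.0618, edgeR), so neither passed alone. Other cell type markers moved in the same comparison. Of the macrophage markers 5 of 6 tested were called higher, and of the erythroid ones 5 of 7 were called lower. These calls pool the genotypes. The erythroid sums overlapped between stages in controls, at 3215 to 3963 and 3040 to 4666 CPM. In mutants they were apart, at 3197 to 3959 and 1686 to 2145 CPM. Skeletal muscle markers summed to 17.3 to 37.2 CPM over the E11.5 libraries and 57.1 to 81.1 over the E12.5 ones. Of the 8 markers in that list only 2 were tested by stage. The muscle creatine kinase gene Ckm was called higher, at 1.88 on the log2 scale, and the other was at −0.09. In the E11.5 controls 3 of the 8 were at 0 in every library, so the sum does not show a rise of the list as a whole. The part of these in the Itga8 rise was not tested.

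Itga4, a receptor subunit for VCAM1 and fibronectin that is needed for the epicardium, was at 4.21, 9.97 and 6.89 RPKM in E11.5 controls and 10.3, 7.37 and 4.04 in E11.5 mutants. At E12.5 it was at 3.73, 3.71 and 4.41 RPKM in controls and 3.85, 4.68 and 3.24 in mutants. In each genotype 1 E11.5 library lay within the E12.5 range, so the stages overlapped. The call was lost on leaving out E11.5 control 3, E12.5 control 1, E12.5 control 2, E12.5 mutant 1 or E12.5 mutant 3, with adjusted p of 0.00539 to 0.0678 over the 12 edgeR fits, and in either genotype alone, at −0.83 and −0.89.

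The remaining 7 genes were not called by stage. Itga9, a subunit for tenascin and SVEP1, came nearest, at 6.22 to 8.64 RPKM in E11.5 controls and 10.3 to 10.8 in E12.5 controls, which did not overlap. Over all libraries its rise was 0.32 on the log2 scale (SE 0.11, adjusted p = 0.0618, edgeR) and in controls alone 0.49 (adjusted p = 0.0342, edgeR), under the fold limit. For Itga6, Itga7, Itga1, Itga5, Itgav and Itga2b the values ran from 0.37 to −0.26. The median over the 9 tested genes was 0.29.

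**Figure D5:**
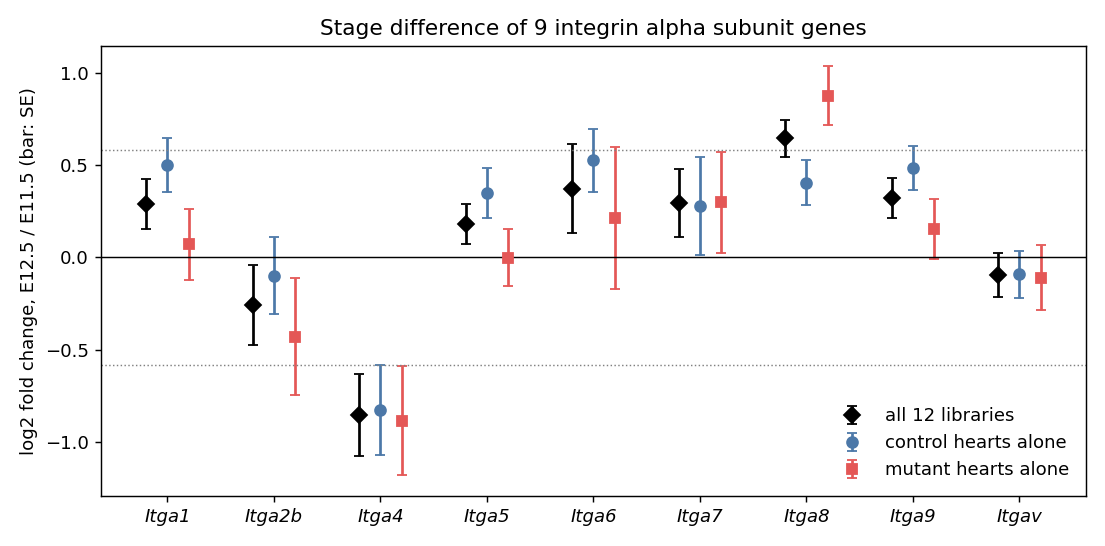
Log2 fold change of E12.5 against E11.5 hearts (vertical axis; bars are SE) for the 9 tested subunit genes, from all 12 libraries (diamonds), 6 control libraries (circles) and 6 mutant libraries (squares); dotted lines mark a fold of 1.5. Itga8 is highest, at 0.65 from all libraries, and Itga4 lowest, at −0.85.

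Whether the genotype difference itself changed between stages was tested over 12 libraries. For Itga8 it rests on the same values that chose the gene, so it is given as a description, the mutant deficit being smaller at E12.5 by 0.48 on the log2 scale (SE 0.20). None of the other 8 subunit genes was called by edgeR or DESeq2, and none had an unadjusted p under 0.05. No gene of the 12270 was called by edgeR (0.0%), with 551 at an unadjusted p under 0.05 (4.49%), while DESeq2 called 43. For the other 8 genes the values ran from −0.42 (Itga1, 2 SE on either side −0.97 to 0.12) to 0.03 (Itga7, −0.71 to 0.76), so sizeable differences between the stages lay within the intervals.

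Some pairs of subunits were alike from library to library and others were not. After subtracting group means, log2 CPM of Itga6 followed Itga1 (Pearson r 0.88, n = 12 libraries), Itga9 (0.83) and Itga5 (0.80), Itgav followed Itga1 (0.93) and Itga6 (0.87), and Itga9 followed Itga5 (0.83). Other pairs of these 5 genes were less alike, with 0.49 for Itgav and Itga9, 0.53 for Itga9 and Itga1, 0.56 for Itgav and Itga5 and 0.59 for Itga5 and Itga1, and without subtracting group means Itgav reached 0.06 with Itga9 and 0.12 with Itga5. All points share their library and its scaling, so these are descriptions. For Itga8 the values ran from −0.58 with Itga11 to 0.47 with Itga9. The summed endothelium and endocardium markers were at 1060 to 1304 CPM for controls and 1260 to 1863 for mutants at E11.5, and at 1349 to 1407 and 1327 to 1647 CPM at E12.5. None of these 8 markers was called between genotypes, and the highest E11.5 sum was in mutant replicate 2, which also had the highest Itga5, Itga6, Itga9 and Itga1 of that stage.

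Outside the subunits, genes whose log2 CPM was among the most like that of Itga8 over the 12 libraries were Pde2a, Spats2l, Flrt2 and Gja3, with Pearson r of 0.948, 0.947, 0.945 and 0.944. Since all 12 libraries share the group differences that picked Itga8, these values include likeness between groups. After subtracting group means r was lower for each, at 0.755, 0.385, 0.571 and 0.388 in the same order, and stayed highest for Pde2a. Pde2a encodes a cyclic nucleotide phosphodiesterase, Flrt2 a transmembrane protein with a role in the epicardium and Gja3 a gap junction protein. Pde2a was at 3.02 ± 0.841 and 1.33 ± 0.201 RPKM in E11.5 controls and mutants and at 5.09 ± 0.606 and 2.51 ± 0.850 at E12.5 (SD, n = 3). Flrt2 was at 15.4 ± 1.68, 8.48 ± 1.34, 16.3 ± 0.996 and 11.8 ± 1.62 RPKM in the same order.

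The rest of the integrin pathway was read from 58 genes, of which 49 passed the filter. None was called between genotypes at E11.5 in edgeR, where 13 had an unadjusted p under 0.05 (9 of them lower in mutants), beside 10.2% of all genes, and DESeq2 called 7. At E12.5, 2 of 49 were called (4.08%, beside 2.95% of all genes), both ligands. By stage 6 of 49 were called (12.2%, beside 4.04%), 4 higher and 2 lower.

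Of the other alpha subunits, 4 of 8 were tested and none was called by genotype. Itga3, a laminin receptor subunit of epithelia, was the highest at 9.61 to 12.7 RPKM over the group means. Itga10, a collagen receptor subunit, rose with stage (0.75, adjusted p = 0.0199, edgeR), from 0.557 to 1.30 RPKM over the 6 E11.5 libraries to 1.36 to 1.79 RPKM at E12.5, which did not overlap. The call was lost without E12.5 control replicate 2 (adjusted p = 0.0568) and with sex in the model (adjusted p = 0.0521, edgeR).

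Itgb1, the partner of alpha8 and of most other alpha chains, was by far the most abundant beta subunit. It was at 207, 243 and 262 RPKM in E11.5 controls and 222, 240 and 172 in mutants, then 266, 223 and 226 against 202, 204 and 231 at E12.5. Genotypes overlapped at both stages, and the log2 differences were −0.16 (adjusted p = 0.851) and −0.15 (adjusted p = 0.364, edgeR). No beta subunit of the 6 tested was called by genotype or stage, although Itgb5, a partner of alphav, had an adjusted p of 0.0249 by stage at 0.34, under the fold limit.

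Npnt, which encodes nephronectin, the ligand of alpha8beta1, was at 10.5, 13.5 and 10.8 RPKM in E11.5 controls and 8.54, 9.64 and 3.97 in mutants. Each mutant was below each control at E11.5, but the difference did not pass (−0.64, SE 0.28, adjusted p = 0.484, edgeR). With sex in the model it passed, at −1.53 (adjusted p = 0.0323, edgeR), but that fit sets the 1 male mutant, replicate 3, against 3 male controls. Replicate 3 was also the lowest mutant and the shallowest library. Without replicate 3, and without sex in the model, the value was −0.35 (adjusted p = 0.277, edgeR). At E12.5 the groups overlapped, at 14.4, 13.3 and 12.6 against 10.7, 11.9 and 13.8 RPKM (−0.13, adjusted p = 0.498, edgeR).

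Lama2, the laminin alpha2 chain of muscle basement membranes, fell in E12.5 mutants. It was at 12.7, 7.04 and 9.01 RPKM in controls and 3.83, 3.93 and 5.56 in mutants, with no overlap (−1.09, SE 0.20, adjusted p = 0.0138, edgeR). At E11.5 the 3.65 to 4.73 RPKM of controls and 1.20 to 2.74 of mutants were also apart, at −1.16 (adjusted p = 0.175 in edgeR and 0.00909 in DESeq2). Lama2 also rose with stage (1.28, adjusted p = 0.00316, edgeR).

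Vwf, the adhesive glycoprotein of endothelium and platelets, rose in E12.5 mutants, from 6.82, 5.37 and 8.23 RPKM to 16.1, 10.7 and 18.9, again with no overlap (1.18, SE 0.20, adjusted p = 0.00985, edgeR). At E11.5 every mutant, at 12.0, 27.8 and 14.9 RPKM, lay above the controls, whose mean was 6.92 (1.40, adjusted p = 0.113 in edgeR and 1.63e-04 in DESeq2). Summed megakaryocyte and platelet markers overlapped at E12.5, at 22.8 to 39.7 and 20.8 to 54.6 CPM. Both E12.5 calls were lost when all 12 libraries shared one estimate of the spread (adjusted p = 0.0834 for Lama2 and 0.0674 for Vwf). The Lama2 call was also lost without mutant replicate 1 (adjusted p = 0.0559) and the Vwf call without control replicate 1 (adjusted p = 0.0521, edgeR).

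Of the ligands of other subunits, Vcam1 reached an adjusted p of 0.0267 at E12.5 in edgeR but stayed under the fold limit (−0.42), as did Svep1 (−0.46, adjusted p = 0.0267). Vcam1 was at 25.1 to 30.9 RPKM in E12.5 controls and 19.3 to 20.8 in mutants, which did not overlap. By stage, the collagen gene Col1a1 (0.97, adjusted p = 0.00661) and Svep1 (0.72, adjusted p = 0.00650, edgeR) rose. The laminin chain Lama1 fell (1.15 to 4.16 RPKM at E11.5 and 0.724 to 1.52 at E12.5, adjusted p = 0.00502, edgeR). Tenascin Tnc fell too (−1.24, adjusted p = 0.0390, edgeR). These values pool genotypes that were apart at E11.5, although none of these genes was called there in edgeR. In E11.5 controls and mutants Col1a1 was at 96.3 to 177 and 51.2 to 93.8 RPKM. Svep1 was at 1.92 to 2.49 and 0.702 to 1.35, and Lama1 at 2.79 to 4.16 and 1.15 to 2.04. Within each genotype Col1a1 and Svep1 were apart between stages. Lama1 was apart in controls and overlapped in mutants, at 0.724 to 1.35 at E12.5. Tnc stood at 48.0 RPKM in E11.5 control replicate 1 and at 4.10 to 14.5 in the other E11.5 libraries. The Tnc call was lost in 8 of the 12 fits that leave out 1 library, and without that control replicate 1 the change was −0.79 (adjusted p = 0.0805, edgeR). In mutant hearts alone it was −0.60. Fn1, the fibronectin bound by alpha5, alphav, alpha4 and alpha8, was the most abundant ligand, at 266 to 285 RPKM over the group means, and was not called in any comparison.

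No gene of the 19 adaptors and kinases tested was called by genotype or stage. Ilk, the integrin-linked kinase, was the most abundant at 160 to 191 RPKM over the group means, and differed between genotypes by −0.14 and −0.17 on the log2 scale (adjusted p = 0.821 and 0.194, edgeR). Tns1 and the paxillin gene Pxn reached adjusted p of 0.00615 and 0.0150 by stage but stayed under the fold limit, at 0.47 and 0.34.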

How the data were processed

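Whole hearts gave 12 paired-end RNA-seq libraries that the authors aligned with Bowtie2 to mm10 (GRCm38) and analysed with DESeq; the counting program, annotation and strand setting were not given in the sources used here. The authors deposited a table headed RPKM and tables of expected counts, here averages of the 3 libraries of a group. The first held count times gene length times a factor of the library, so counts were recovered from it with the averages. All 17827 genes with reads came out whole, none farther than 5.68e-10 from a whole number, and averages times 3 equalled the group sums. The authors' own fold changes and p-values were not used.

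Counts were tested with the quasi-likelihood test of edgeR 4.0.16 in R 4.3.3 with TMM scaling, over genes with a mean of at least 0.5 RPKM in the fit, and p-values were adjusted over all genes tested. Genotype fits used 6 libraries, stage and difference fits 12. The difference of genotype effects needed only adjusted p of at most 0.05. Likeness used log2 CPM with a prior count of 2. Count recovery and the fits were tested on simulated data. DESeq2 1.42.0 and other scalings, filters and covariates were alternatives. All subunits were named, with pathway genes that were called or highest of their list, the 5 genes most like Itga8 (1 of them is not reported here), and, chosen after their values were seen, Npnt, Itgb5, Vcam1, Svep1, Tns1, Pxn, the markers named and the stage calls. The subunits and all lists were chosen with earlier results of these data known. Replicates differed beyond sampling noise in every pair.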

Additional observations from a re-analysis of the deposited data

How the results depend on the processing

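The Itga8 genotype difference, whose direction follows from how the gene was chosen, was −1.55 at E11.5 with sex as a covariate, and a filter of mean RPKM of at least 5 left it untested there, so 0 subunits were called. Its stage rise was called in 19 of 21 alternatives and the Itga4 fall in 14 of 21; 0 subunits were called in control hearts alone and 0 in mutant hearts alone. At E11.5 the pathway genes called went from 0 to 7 with DESeq2, 1 with no filter, 2 with sex as a covariate and 4 with all 12 libraries in one fit. At E12.5 the 2 became 4 with no filter, 5 with no fold threshold and 0 with all 12 libraries, and by stage the 6 became 2 at a mean RPKM of at least 5, 10 with no fold threshold and 1 in mutant hearts alone. The Itga5 stage value turned to −0.000113 in mutant hearts alone. Differences of genotype effects turned with sex as a covariate for Itga4 (0.15), Itga6 (0.12) and Itgav (0.23), as did the Ilk genotype value at E11.5 (0.00544). Causes of these changes were not tested. On leaving out 1 library at a time, called subunits ranged from 0 to 1 at E11.5, 1 to 1 at E12.5 and 1 to 2 by stage, pathway genes from 0 to 0, 1 to 2 and 4 to 7, and the difference for Itga4 from −0.40 to 0.29, Itga6 from −0.65 to 0.11, Itga7 from −0.17 to 0.23 and Itgav from −0.16 to 0.14. Over all genes, calls at E11.5 ranged from 0 to 15 in such fits and were 248 with DESeq2, beside 14.

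Replicate numbers are shared between genotypes, but deviations of same-numbered controls and mutants correlated at 0.003, 0.40 and 0.27 at E11.5 and 0.03, 0.06 and 0.05 at E12.5, so they were not taken as pairs. With the replicate block, 3 pathway genes and 1 subunit were called at E11.5, 2 and 1 at E12.5 and 6 and 2 by stage, and the Itgav difference turned to 0.0064. With 3 libraries a group, small counts such as those of Itga11 and Itga7 limit what can be seen.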
